A study of Mus musculus with 4 samples.

Results

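Beside the beta cells that make insulin, islets hold smaller endocrine populations, and 9 of their genes were followed here in whole mouse islets at low and high glucose. They were the hormones glucagon (*Gcg*), somatostatin (*Sst*), pancreatic polypeptide (*Ppy*), peptide YY (*Pyy*) and ghrelin (*Ghrl*), the delta cell transcription factor *Hhex*, the ghrelin receptor *Ghsr*, and the carrier proteins *Rbp4* and *Ttr*. The 9 genes are 9 of 24012 gene symbols in the deposited table and occupy 13 of its 33923 rows, from which the row with the highest mean was kept for each gene. *Ghrl* had 4 rows, 3 of them identical, *Rbp4* had 2, and each other gene had 1.

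Islets of wild type male C57bl6 mice, 3 months of age, were pooled, cultured overnight at 11 mM glucose and starved for 2 h at 2.8 mM glucose. They then stayed at 2.8 mM (low glucose) or went to 16.8 mM (high glucose), with 2 libraries of 100 islets at each concentration. The study's methods and design text give 12 h for both concentrations, whereas the sample labels give 2 h for low glucose and 12 h for high glucose, so a difference in time between the groups cannot be told apart from one in glucose if the labels hold. Replicates came from pooled islets, and the p-values therefore measure the spread between these libraries, which may be technical. The depth recovered from the steps of the values was between 50800000 and 60700000 reads per library (3 digits). With 2 libraries at each concentration, their number limits the precision.

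Glucagon is made by alpha cells and raises hepatic glucose output, while somatostatin from delta cells restrains the release of both insulin and glucagon. Pancreatic polypeptide marks a further endocrine cell type, peptide YY is its close relative and is made in several islet cell types, and ghrelin comes from rare epsilon cells. *Hhex* is needed for delta cells to form and to keep making somatostatin, and the ghrelin receptor is known from delta cells, where ghrelin promotes somatostatin release.

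The upstream sequences of *Sst*, *Pyy* and *Gcg* are shown because *Sst* and *Pyy* were the hormones with the largest differences between the concentrations and *Gcg* was the most abundant. RefSeq start sites matched 8 of the 9 genes. Each sequence is the 250 bases before the start site (the first of 2 listed starts for *Pyy*), read 5′ to 3′ on the minus strand of GRCm38.p6, at chr16:23890845-23891094 for *Sst*, chr11:102107833-102108082 for *Pyy* and chr2:62483654-62483903 for *Gcg*. Capitals mark the cAMP response element TGACGTCA and the TATA motif TATAAA, both searched on both strands.
Sst: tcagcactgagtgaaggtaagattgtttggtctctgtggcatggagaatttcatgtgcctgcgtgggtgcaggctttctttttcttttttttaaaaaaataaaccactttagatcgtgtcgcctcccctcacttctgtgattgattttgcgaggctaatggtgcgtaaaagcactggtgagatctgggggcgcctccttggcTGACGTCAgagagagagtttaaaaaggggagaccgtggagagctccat
Pyy: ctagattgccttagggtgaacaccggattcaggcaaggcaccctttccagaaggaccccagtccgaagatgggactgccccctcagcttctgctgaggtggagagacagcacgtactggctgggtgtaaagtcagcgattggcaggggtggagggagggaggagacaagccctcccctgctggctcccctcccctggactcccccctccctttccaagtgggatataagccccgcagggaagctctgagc
Gcg: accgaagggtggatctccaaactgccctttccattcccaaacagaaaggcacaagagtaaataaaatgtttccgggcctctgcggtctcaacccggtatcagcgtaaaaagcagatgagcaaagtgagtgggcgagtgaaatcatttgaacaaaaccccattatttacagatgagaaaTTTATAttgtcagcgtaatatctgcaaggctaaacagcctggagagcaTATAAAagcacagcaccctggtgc

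TGACGTCA occurred once upstream of *Sst*, beginning 48 bases before the start, and in no listed window of the other 7 matched genes. Of the same windows of all 32851 listed starts, 1.55% held it. TATAAA or its reverse complement began 24 and 72 bases before the *Gcg* start, was also present for *Ppy* and for 1 of 2 starts of *Rbp4*, and was present in 12.4% of all windows. A match describes the letters of the window and no binding was measured.

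Glucagon was the most abundant transcript of the 9 in every library, followed by pancreatic polypeptide, and these, *Sst* and *Pyy* stood above the other 5 genes in every library. The deposited unit is RPKM, a read number divided by transcript length in kilobases and by library depth, and the kilobases proved to be those of the whole genomic span with introns. Levels are therefore also given as exonic RPKM, from rebuilt reads over the length of the exons. The paper describes counting reads on exons, which these values cannot check. Any counted intronic reads would raise the exonic RPKM, most where introns are long. *Gcg* spans 9.121 kb with 6 exons on chr2:62312587-62321707 (NCBI build 37) and received between 683210 and 1162861 reads, 1.34% to 1.97% of each library. Its exonic RPKM was 15959 ± 2977 (SD, n = 2) at low glucose and 14979 ± 3708 (SD, n = 2) at high glucose.

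*Ppy* (chr11:101961244-101962633) lay between 2024 and 3161 in exonic RPKM. *Sst* (chr16:23889667-23890930) lay between 927 and 1459, and *Pyy* (chr11:101967990-101969146), a neighbour of *Ppy* on chromosome 11, lay between 883 and 1542. The ranges of *Sst* and *Pyy* overlapped at both concentrations, so their order was not separated by more than their spread. *Ttr*, the thyroid hormone carrier that also holds the retinol carrier Rbp4 in blood, lay between 241 and 437, and *Rbp4* (chr19:38191110-38199811) between 44.3 and 70.4. *Ttr* is overlapped on the opposite strand by the noncoding gene Gm16090, and because the use of strand in counting is not stated for these libraries, its reads cannot be told apart from those of this neighbour.

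The last places held genes of rare cells or of low transcript number. *Ghrl* (chr6:113666126-113669438) lay between 2.81 and 7.33 exonic RPKM and *Hhex* (chr19:37507377-37515218) between 2.26 and 3.49, which overlap. *Ghsr* (chr3:27270273-27276932) was lowest in every library, between 0.692 and 1.11. In reads, *Ghrl* rested on 54 to 163 and *Ghsr* on 156 to 298 per library, against 438 to 759 for *Hhex*. On the deposited span scale *Hhex* stood above *Ghrl* in every library instead, the span being 8.82 times the exons for *Ghrl* and 2.11 times for *Hhex*. Both *Ghrl* and *Ghsr* averaged under 1 RPKM, the minimum for testing, with means of 0.610 and 0.583 RPKM against 1.36 RPKM for *Hhex*, the lowest gene tested.

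**Figure D1:**
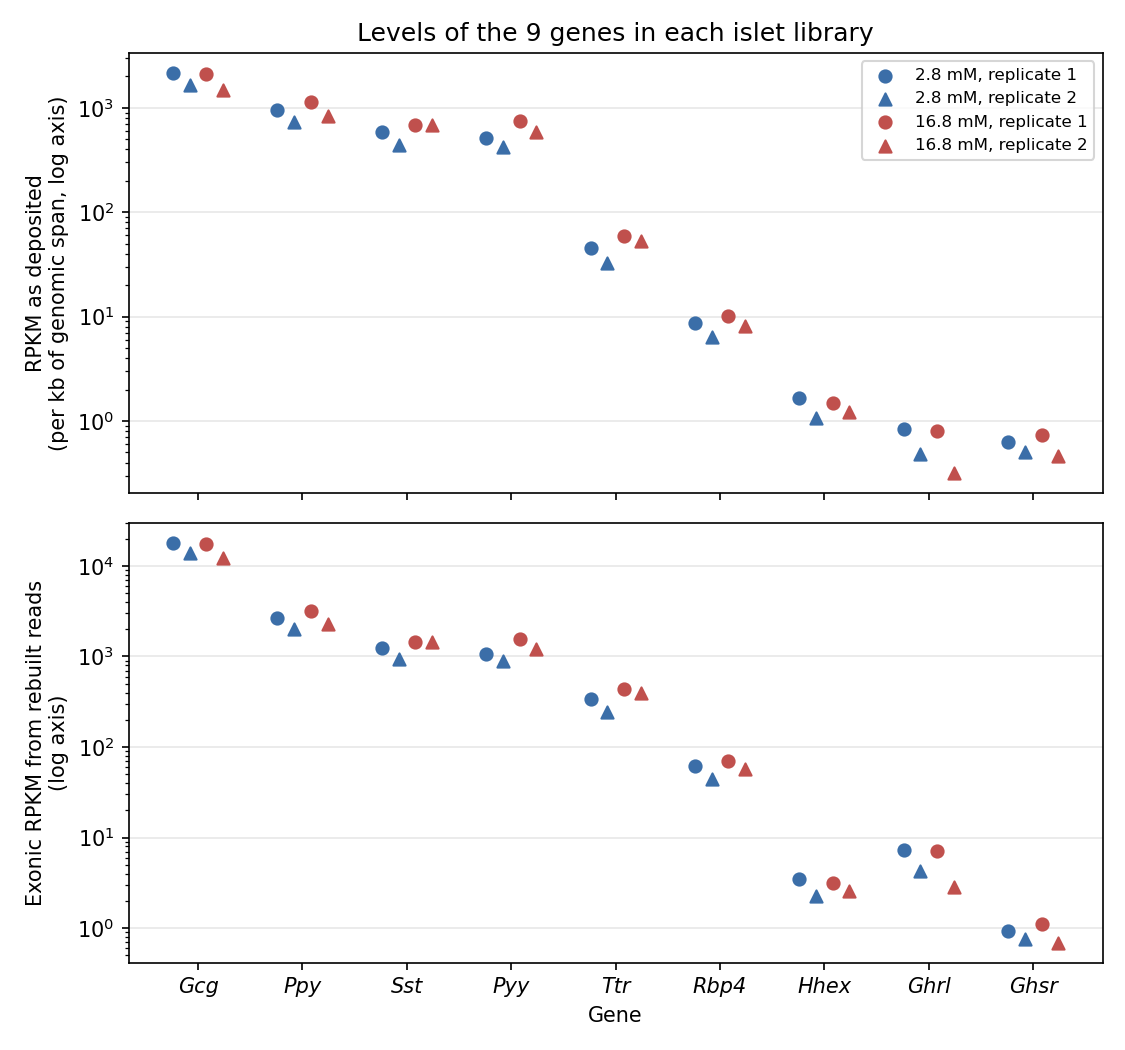
Levels of the 9 genes in the 4 libraries on log axes, as deposited RPKM per kilobase of genomic span (top) and as exonic RPKM from rebuilt reads (bottom), with colour for glucose and shape for replicate number. Genes are ordered by their mean on the top axis, from *Gcg* to *Ghsr*, and single libraries depart from this order for *Sst* and *Pyy* and for *Ghrl* and *Ghsr*. *Ghrl* and *Hhex* change places on the bottom axis, and the triangle of replicate 2 lies below the circle of replicate 1 of the same colour for each gene.

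The main question of the design is whether these transcripts differ between 2.8 and 16.8 mM glucose. None of the 7 members tested passed the threshold, in either direction. The glucagon transcript was at nearly the same level at both concentrations, whereas *Sst*, *Pyy* and *Ttr* were higher in both high glucose libraries than in either low glucose library without passing the test. By limma on log2(RPKM + 0.5) with Benjamini-Hochberg adjustment over 7867 transcripts, 33.4% of the transcripts tested passed (838 higher and 1790 lower at high glucose), and the median log2 difference was -0.11 over all of them and 0.27 over the 7 members. At an unadjusted p under 0.05 there were 3 of the 7 members, and 45.8% of all transcripts tested. In whole islets, fewer cells of a type and less RNA per cell cannot be told apart.

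*Gcg* measured 2155 and 1653 RPKM in replicates 1 and 2 at low glucose and 2099.8 and 1474 RPKM at high glucose. The libraries overlapped, and each high glucose library lay a little under the low glucose library of its number. The log2 difference, high minus low, was -0.10 (SE 0.20, 95% interval -0.58 to 0.37, adjusted p = 0.721 by limma). The interval therefore runs from a level 0.671 times to 1.30 times that of low glucose.

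*Sst* measured 587 and 439.5 RPKM at low glucose and 692 and 686 RPKM at high glucose. Both high glucose libraries exceeded both low glucose libraries, and the 2 high glucose values were almost equal. The log2 difference was 0.44 (SE 0.16, 95% interval 0.06 to 0.82), with an adjusted p = 0.0761 by limma. Over the alternatives the adjusted p ran from 0.00327 to 0.305.

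*Ppy* measured 959.9 and 729 RPKM at low glucose and 1138 and 826 RPKM at high glucose. Replicate 1 at low glucose stood above replicate 2 at high glucose, so the groups overlapped. Its log2 difference was 0.21 (SE 0.20, 95% interval -0.26 to 0.68, adjusted p = 0.437 by limma).

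*Pyy* measured 511 and 424 RPKM at low glucose and 740.2 and 586 RPKM at high glucose. Its groups did not overlap, and it was the member closest to the threshold. The log2 difference was 0.50 (SE 0.16, 95% interval 0.11 to 0.89), with an adjusted p = 0.0546 by limma, and the adjusted p ran from 0.000189 to 0.331 over the alternatives.

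*Ttr* measured 45.3 and 32.4 RPKM at low glucose and 58.7 and 52.6 RPKM at high glucose, again without overlap. The log2 difference of 0.53 was the largest among the members tested (SE 0.18, 95% interval 0.10 to 0.96), with an adjusted p = 0.0613 by limma, and the adjusted p ran from 7.45e-05 to 0.225 over the alternatives. *Rbp4* measured 8.74 and 6.32 RPKM at low glucose and 10.1 and 8.18 RPKM at high glucose. Its groups overlapped, with a log2 difference of 0.27 (SE 0.17, 95% interval -0.14 to 0.68, adjusted p = 0.262 by limma).

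*Hhex* measured 1.66 and 1.075 RPKM at low glucose and 1.49 and 1.21 RPKM at high glucose. The high glucose values lay inside the low glucose range, and the log2 difference was 0.00 (SE 0.15, 95% interval -0.36 to 0.36, adjusted p = 0.996 by limma). *Ghrl* was not tested, with 0.831 and 0.485 RPKM at low glucose and 0.805 and 0.319 RPKM at high glucose. *Ghsr* was not tested either, with 0.627 and 0.506 RPKM at low glucose and 0.737 and 0.461 RPKM at high glucose. For both of these the groups overlapped, and the lowest value of each was in replicate 2 at high glucose.

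**Figure D2:**
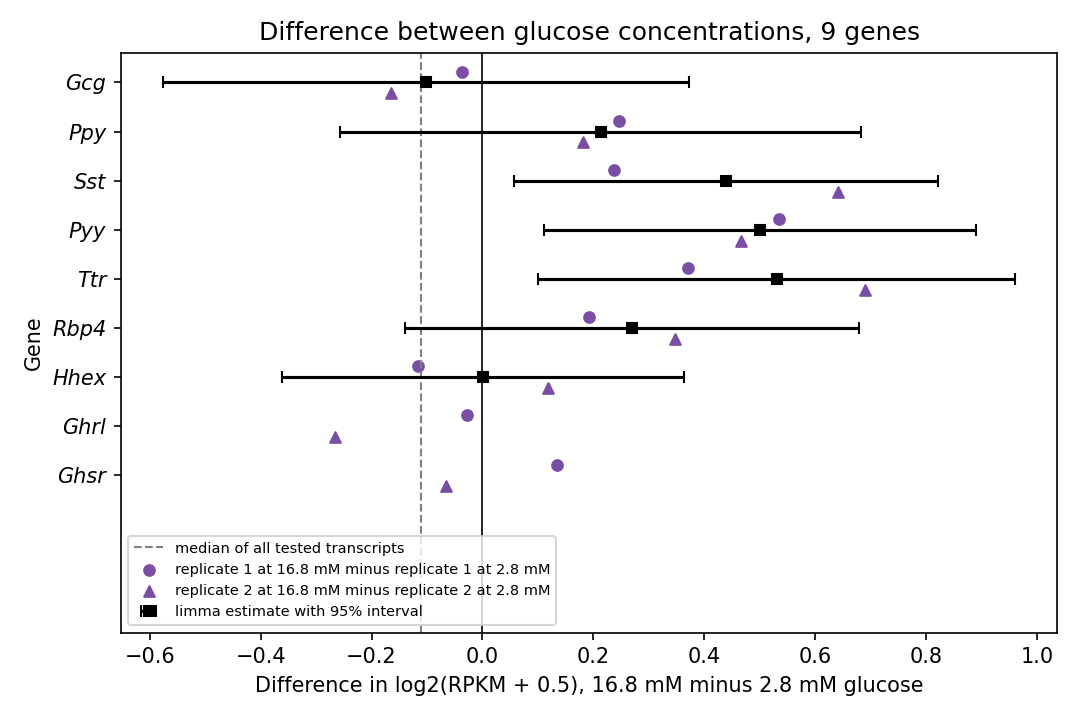
Difference in log2(RPKM + 0.5) between 16.8 and 2.8 mM glucose for the 9 genes. Squares with bars are limma estimates with 95% intervals for the 7 tested genes, purple symbols are differences between libraries of the same replicate number, and the dashed line is the median of all tested transcripts. The intervals of *Sst*, *Pyy* and *Ttr* lie above 0 and those of the other 4 tested genes include it.

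The transcripts whose values over the 4 libraries were nearest to those of *Gcg* and *Sst* were sought among the 1093 transcripts averaging 10 RPKM or more, by the root mean square distance between centred log2(RPKM + 0.5) values. For *Gcg* they were Mir5121 at a distance of 0.08 log2 units, *Resp18*, a neuroendocrine secretory protein gene, at 0.09, and Mir7092 at 0.09. *Resp18* measured 73.0 and 58.9 RPKM at low glucose and 74.2 and 59.2 RPKM at high glucose, so it shared the higher values of replicate 1. For *Sst* they were *Tceal3* at 0.04 and the histone genes *Hist2h2aa2* and *Hist2h2aa1* at 0.06 each. *Tceal3* measured 15.4 and 11.7 RPKM at low glucose and 19.6 and 18.3 RPKM at high glucose. The microRNA entries can hold reads of a longer transcript around them, and the histone genes are near-identical copies between which reads can be split, so these 4 are uncertain.

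*Sst*, *Pyy* and *Ttr* are 3 of 7 members tested with no overlap and higher values at high glucose, against 22.2% of all transcripts tested. Their calls turned on the scaling and on single libraries. With each library centred on its median, all 3 passed (adjusted p = 0.0408 for *Sst*, 0.0246 for *Pyy* and 0.0371 for *Ttr* by limma), beside 47.9% of all transcripts and a split of 1662 higher and 2103 lower. The same 3 passed by voom on rebuilt reads (adjusted p of 0.00443, 0.00186 and 0.00186), out of 9 members tested and beside 42.0% of 14472 transcripts. Without replicate 1 at low glucose the 3 passed together with *Rbp4* (27.0% of all transcripts), without replicate 2 at high glucose *Pyy* passed (23.2%), and without either other library no member passed. The log2 difference without replicate 2 and without replicate 1 at low glucose was 0.23 and 0.65 for *Sst*, 0.29 and 0.77 for *Ttr* and 0.05 and 0.49 for *Rbp4*. For *Pyy* it was 0.33 without replicate 1 and 0.67 without replicate 2 at high glucose. *Pyy* passed in 11 of 16 alternatives, *Sst* and *Ttr* in 7 each, *Rbp4* in 3, *Ppy* in 1, and *Gcg* and *Hhex* in none.

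The labels number the libraries 1 and 2 at each concentration without saying what a number marks. Compared within the same number, 5 of the 9 members were higher at high glucose in both comparisons, namely *Sst*, *Ppy*, *Pyy*, *Rbp4* and *Ttr*. All 5 were among the 7 members tested, and 29.3% of all transcripts tested did the same. The log2 difference within replicates 1 and 2 was 0.24 and 0.64 for *Sst*, 0.25 and 0.18 for *Ppy*, and 0.53 and 0.47 for *Pyy*. For *Ttr* it was 0.37 and 0.69, and for *Rbp4* 0.19 and 0.35. *Pyy* and *Ppy* were thus similar within both numbers, while the difference of *Sst* was mainly in replicate 2. *Gcg* was lower within both numbers (-0.04 and -0.16), as was *Ghrl* (-0.03 and -0.27), and *Hhex* (-0.12 and 0.12) and *Ghsr* (0.13 and -0.07) went opposite ways.

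The difference between replicate numbers had 1 direction in these genes. All 9 members were higher in replicate 1 than in replicate 2 at both concentrations, whatever their abundance and cell type. Of all transcripts tested, 74.3% had that order, but with small differences, the median transcript being 1.08 times higher in replicate 1 at each concentration. The median over the 9 members was 1.34 at low glucose and 1.26 at high glucose.

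*Gcg* was 1.30 and 1.42 times higher in replicate 1 at low and high glucose, and *Ppy* 1.32 and 1.38 times. *Pyy* was 1.205 and 1.26 times higher, *Rbp4* 1.38 and 1.23 times, and *Hhex* 1.54 and 1.23 times. The ratios of the hormones *Gcg*, *Ppy* and *Pyy* thus lay between 1.205 and 1.42. *Ghrl* had the widest ratios, 1.71 and 2.53, on its low read numbers, and *Ghsr* had 1.24 and 1.60. *Sst* and *Ttr* were 1.34 and 1.40 times higher at low glucose, but 1.009 and 1.12 times at high glucose.

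**Figure D3:**
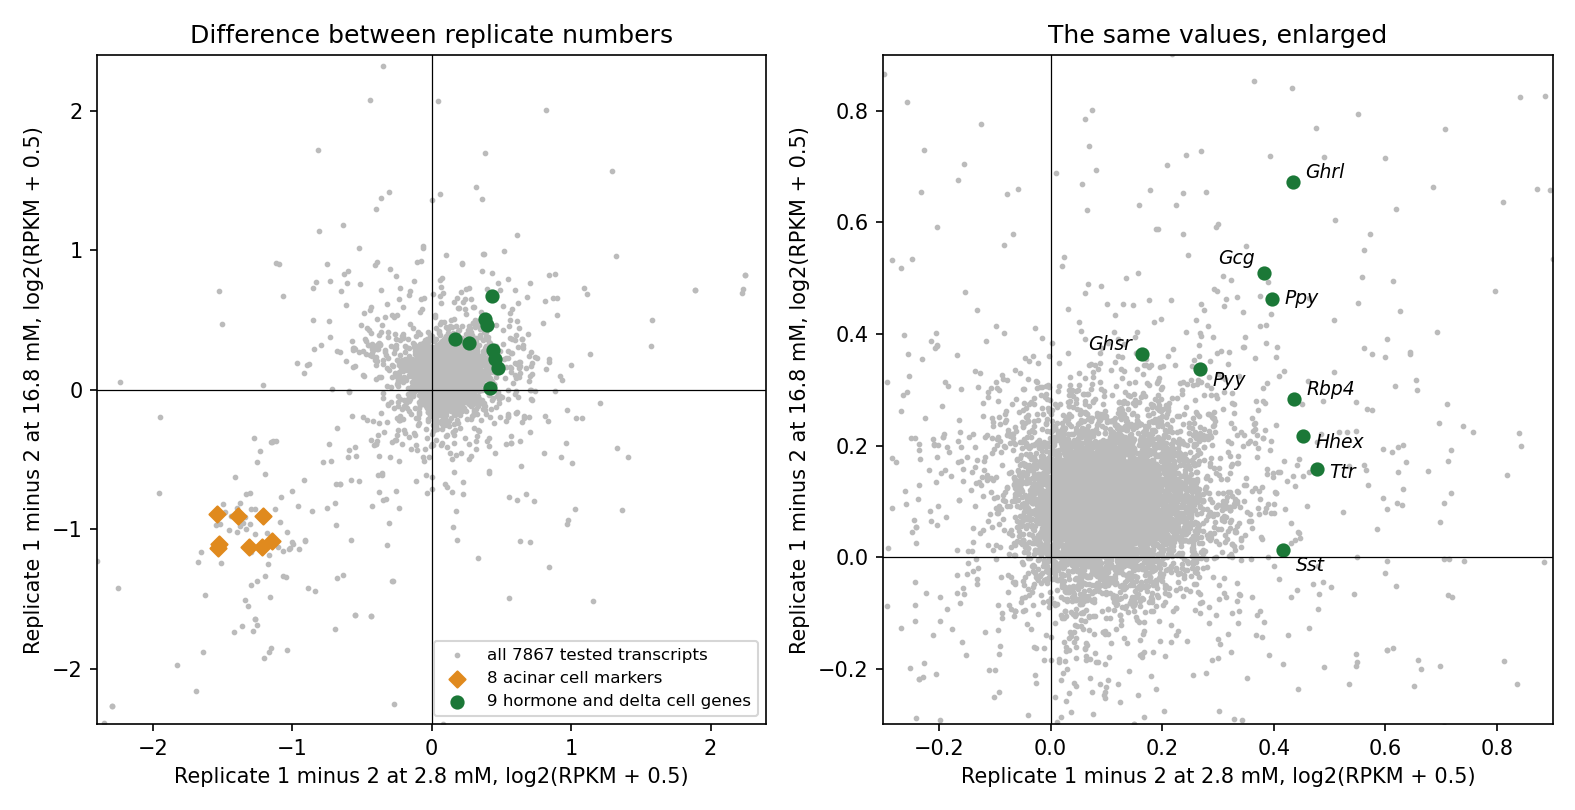
Difference in log2(RPKM + 0.5) between replicates 1 and 2 at 2.8 mM (horizontal) and at 16.8 mM glucose (vertical), for the transcripts tested (grey), the 9 genes (green, named in the enlarged panel) and 8 acinar cell markers (orange). The 9 genes lie at the upper right edge of the cloud or beside it, and the acinar markers lie together at the lower left. Outside the axes of the first panel are 26 transcripts.

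Markers of other cell types moved with the replicate number as well. The 8 acinar markers, genes of digestive enzymes made by exocrine cells, had the opposite order and were higher in replicate 2 at both concentrations in 8 of 8 cases. Their summed level was 102 and 291 RPKM in replicates 1 and 2 at low glucose and 246 and 509.8 RPKM at high glucose, and the most abundant, *Ctrb1*, ran from 47.1 to 251 RPKM. All 8 were higher at high glucose within both numbers, *Ctrb1* by 1.27 and 0.87 on the log2 scale. None of the 8 passed limma between the concentrations, whereas all 8 passed as higher at high glucose with the replicate number as a term, by voom with or without it, with at least 1 RPKM in every library, without replicate 2 at low glucose and without replicate 1 at high glucose. Without replicate 1 at low glucose 3 of them passed. Of the 4 duct markers 3 were higher in replicate 2 at both concentrations, of which only *Krt19*, with 1.27 to 7.56 RPKM, reached the minimum. *Sox9* and *Cftr* lay under it and were not tested. *Spp1*, the most abundant, measured 18.3 and 12.4 RPKM at low glucose and 22.7 and 25.98 RPKM at high glucose and passed as higher (log2 difference 0.67, adjusted p = 0.0358 by limma). It passed in 11 of 16 alternatives, and not with quantile normalization, with no minimum, with the replicate number as a term, or without replicate 2 at low or at high glucose.

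Most of the alpha cell list had the order of the members, which 74.3% of all transcripts tested also had. Of its 6 genes, 5 were higher in replicate 1 at both concentrations, and its summed level was 19.96 and 15.0 RPKM at low glucose and 16.9 and 14.6 RPKM at high glucose. Of the 5 tested, 1 passed, against 33.4% of all transcripts tested. This was *Gc*, a vitamin D carrier, which measured 1.74 and 1.29 RPKM at low glucose and 2.03 and 2.21 RPKM at high glucose (log2 difference 0.39, adjusted p = 0.0456 by limma). *Gc* passed in 11 of 16 alternatives, and not without the trend, with no minimum, with the replicate number as a term, or without replicate 2 at low or at high glucose.

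Of the cells around the endocrine tissue, 4 of 4 endothelial and 4 of 4 leukocyte markers were higher in replicate 1 at both concentrations. Of all transcripts tested, 74.3% had this order, so these small counts do not set the lists apart. The endothelial sums were 2.54 and 1.65 RPKM at low glucose and 2.88 and 2.00 RPKM at high glucose, and the leukocyte sums were 13.7 and 9.99 RPKM at low glucose and 14.2 and 9.99 RPKM at high glucose. Among the leukocyte markers *Cd68* ran from 6.76 to 9.74 RPKM and *Lyz2* from 2.73 to 4.79 RPKM, while *Ptprc* did not exceed 0.0258 RPKM. These values are per kilobase of genomic span, so they do not compare the transcript levels of different genes. The stromal sums were between 1.64 and 3.40 RPKM, with 3 of 5 markers higher in replicate 1 at both concentrations. The beta cell list showed no common order, with 2 of 8 markers higher in replicate 1 and 1 of 8 in replicate 2 at both concentrations. Of these 8 markers, 6 passed limma as higher at high glucose, among them *Ins2* and *Ins1*, beside 838 of all 7867 transcripts tested. The part of any of these cells in the values of the 9 genes was not tested.

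The delta cell label rests here on *Sst* and *Hhex*, whose log2 differences were 0.44 and 0.00, and on *Ghsr*, which was not tested. The 4 further delta cell markers examined, *Ptprz1*, *Efhd1*, *Cbln4* and *Spock3*, summed to between 0.148 and 0.242 RPKM per library on the span scale, with none at 0 in every library and 3 under 0.1 RPKM in each. None was tested, and their level gave no second measure of delta cells at the minimum used.

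Within a library, the ratio of one member to another does not depend on how the library is scaled. Relative to glucagon, *Ppy*, *Sst*, *Pyy*, *Ttr*, *Rbp4* and *Ghsr* were higher in both high glucose libraries than in both low glucose libraries, which is 6 of 8 ratios. Among the members tested it was 5 of 6, against 17.4% of the other transcripts tested. *Ppy* was 44.5% and 44.1% of *Gcg* at low glucose and 54.2% and 56.0% at high glucose, in RPKM of the genomic span. The replicates of *Ppy* over *Gcg* were close to each other at each concentration, although each gene by itself differed between replicate numbers.

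*Sst* was 27.2% and 26.6% of *Gcg* at low glucose and 32.9% and 46.5% at high glucose, and *Pyy* was 23.7% and 25.7% at low glucose and 35.3% and 39.7% at high glucose. *Ttr* went from 2.10% and 1.96% to 2.79% and 3.57%. The low glucose replicates were close in all of these, and replicate 2 at high glucose gave the highest ratio each time. *Rbp4* over *Gcg* was 0.405% and 0.383% at low glucose and 0.479% and 0.555% at high glucose. For the untested *Ghsr* it was 0.0291% and 0.0306% at low glucose and 0.0351% and 0.0313% at high glucose. That narrow separation rests on 156 to 298 reads of *Ghsr* per library. The ratios of *Hhex* and *Ghrl* to *Gcg* overlapped between the concentrations. With 2 libraries at each concentration, an exact permutation test of one ratio cannot give a two-sided p under 0.333, so the ratios are given as values. A ratio shows that 2 genes changed unequally and not which of them changed.

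**Figure D4:**
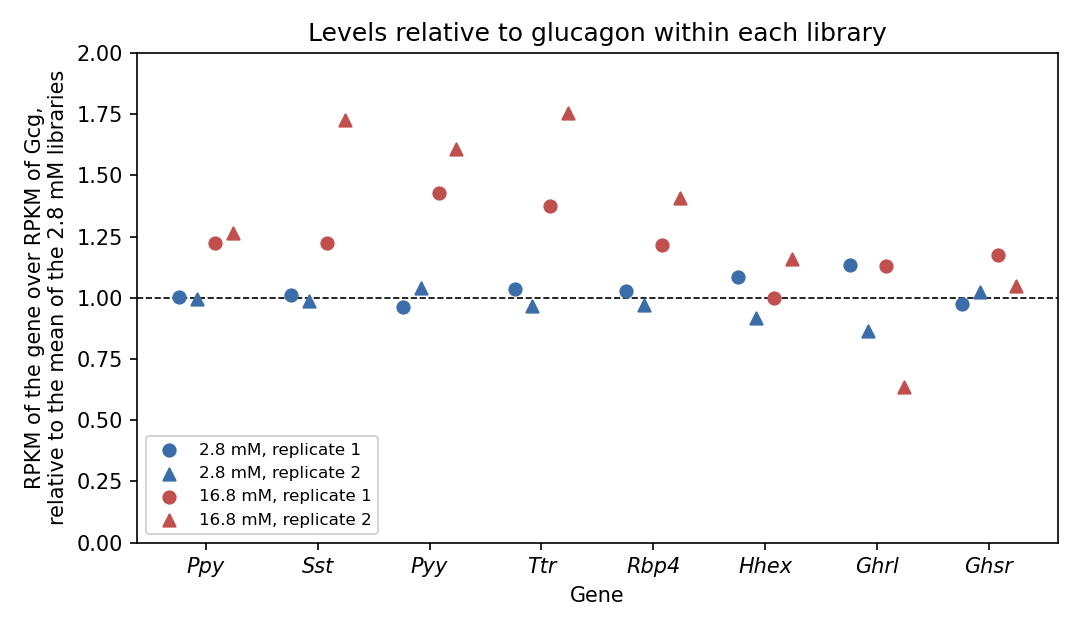
RPKM of 8 genes divided by RPKM of *Gcg* in the same library, relative to the mean of the 2.8 mM libraries (dashed line at 1), with colour for glucose and shape for replicate number. The high glucose points of *Ppy*, *Sst*, *Pyy*, *Ttr*, *Rbp4* and *Ghsr* lie above both low glucose points, and those of *Hhex* and *Ghrl* overlap with them.

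The receptors and processing enzymes of these hormones were measured in the same libraries, and most of those tested passed. Their levels are per kilobase of genomic span, so long introns lower a gene's value and can keep it under the minimum. Of 22 genes of this list, 10 reached the minimum and 8 of the 10 passed limma, 5 higher and 3 lower at high glucose, against 33.4% of all transcripts tested. The glucagon receptor *Gcgr* measured 2.04 and 2.06 RPKM at low glucose and 1.07 and 1.06 RPKM at high glucose. It fell by 0.70 on the log2 scale (SE 0.08, adjusted p = 0.00117 by limma), with no overlap and replicates that were almost equal.

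*Glp1r*, the receptor of the incretin that is made from the same precursor as glucagon, measured 3.92 and 4.22 RPKM at low glucose and 2.77 and 3.19 RPKM at high glucose (log2 difference -0.39, adjusted p = 0.0266 by limma). It passed in 10 of 16 alternatives, and not with another scaling, with no minimum, without replicate 2 at low glucose or without replicate 1 at high glucose. *Gipr*, the receptor of the other incretin, was higher at high glucose, with 2.88 and 3.21 RPKM against 6.39 and 5.66 RPKM (log2 difference 0.88, adjusted p = 0.00180 by limma). The incretin receptors thus went opposite ways.

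Of the somatostatin receptors, *Sstr3* alone reached the minimum on the span scale. It measured 14.3 and 13.4 RPKM at low glucose and 8.32 and 8.29 RPKM at high glucose and fell by 0.71 on the log2 scale (SE 0.11, adjusted p = 0.00423 by limma). *Sstr1* and *Sstr2* were at 0.216 to 0.358 RPKM and *Sstr4* and *Sstr5* under 0.1 RPKM in every library. *Ucn3*, a beta cell peptide that acts on delta cells to release somatostatin, measured 14.2 and 16.4 RPKM at low glucose and 20.8 and 25.97 RPKM at high glucose (log2 difference 0.59, adjusted p = 0.0241 by limma). *Ucn3* passed in 13 of 16 alternatives, and not with quantile normalization, with no minimum or without replicate 2 at high glucose, and its receptor *Crhr2* did not exceed 0.0278 RPKM. The receptors of the peptide YY family (*Npy1r*, *Npy2r*, *Npy4r*, *Npy5r*) and the Rbp4 receptor *Stra6* were each under 0.1 RPKM in every library.

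Among the processing genes, *Pcsk1*, the prohormone convertase that cuts proinsulin, had the greatest difference of the list. It measured 2.60 and 2.399 RPKM at low glucose and 9.18 and 10.9 RPKM at high glucose and was higher by 1.81 on the log2 scale (SE 0.12, adjusted p = 0.000184 by limma). *Pcsk2*, the convertase that releases glucagon from its precursor, measured 6.12 and 5.94 RPKM at low glucose and 9.35 and 9.10 RPKM at high glucose (log2 difference 0.58, adjusted p = 0.00679 by limma). *Pam*, which amidates peptide ends such as those of pancreatic polypeptide and peptide YY, measured 1.94 and 1.82 RPKM against 3.97 and 3.76 RPKM (log2 difference 0.87, adjusted p = 0.000906 by limma).

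*Cpe*, the carboxypeptidase that trims cut prohormones, measured 19.2 and 17.2 RPKM at low glucose and 20.4 and 18.9 RPKM at high glucose and did not pass (adjusted p = 0.529 by limma). *Scg5*, a chaperone of Pcsk2, did not pass either (adjusted p = 0.293 by limma). *Dpp4*, which inactivates incretins, averaged just under the minimum with 0.883 to 1.013 RPKM, and *Mboat4*, which acylates ghrelin, did not exceed 0.0379 RPKM. These genes are also expressed by beta cells, and whole islets do not say in which cells they differed.

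**Figure D5:**
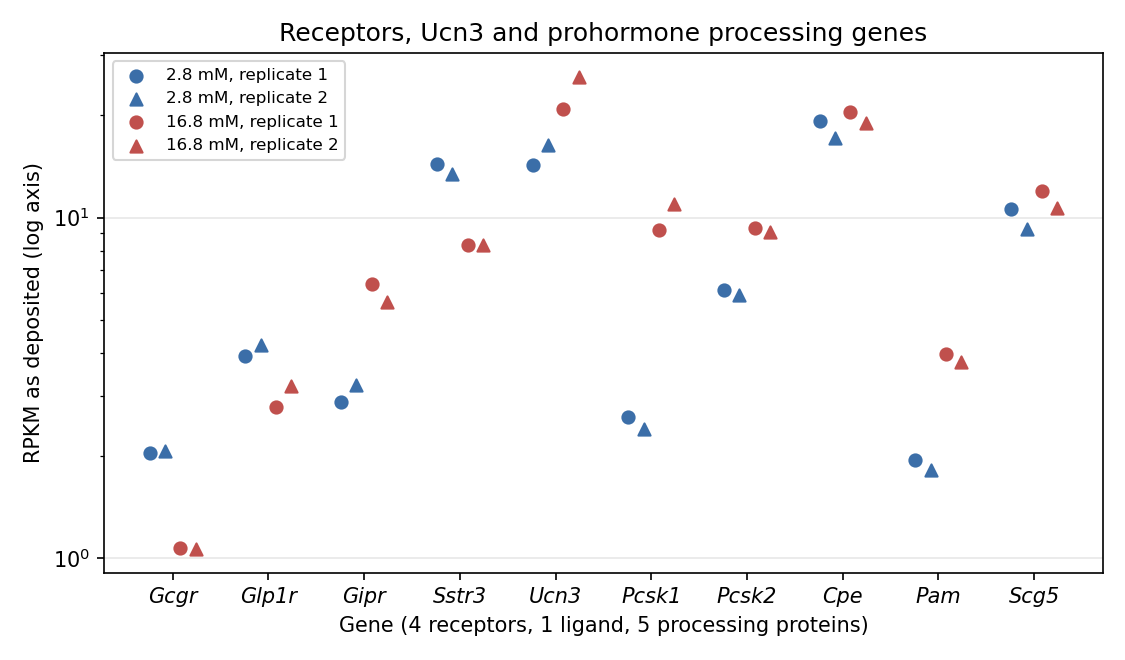
Deposited RPKM per kilobase of genomic span (log axis) of the 10 receptor, ligand and processing genes that reached the minimum, in the 4 libraries, with colour for glucose and shape for replicate number. The high glucose points of *Gcgr*, *Glp1r* and *Sstr3* lie below both low glucose points, and those of *Gipr*, *Ucn3*, *Pcsk1*, *Pcsk2*, *Pam* and *Scg5* lie above them.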

How the data were processed

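RNA of 100 islets per library was sequenced (TruSeq v2, 50 cycles, single reads), with 2 libraries at each glucose concentration. The authors deposited 1 table of RPKM values per RefSeq transcript, and each of its 4 library columns was read. The submitters' processing notes name STAR, bedtools, DESeq and mm9. At the recovered depths 76.7% to 77.4% of low values were whole reads (within 0.05) over the genomic span and 20.7% to 22.5% over exons, so reads were rebuilt from the span. Values were taken to log2(RPKM + 0.5), which shrinks the changes of low genes. Rows with the same values for a gene entered once, limma 3.58.1 (R 4.3.3) was run on all entries averaging 1 RPKM or more (variance trend, Benjamini-Hochberg, threshold 0.05), and the code was tested on simulated data. The planned count test needs counts, and limma took its place. Other steps used Python 3.11.15, pandas 2.3.3 and matplotlib 3.10.9. Members and lists were chosen with earlier results of these data known. All 9 members are named, with the pathway genes at or over the minimum and the defining genes of each marker list, and the transcripts nearest to *Gcg* and *Sst*. The values of 1 listed marker are not reported here. Gene spans come from NCBI build 37. The alternatives are given in the closing section.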

Additional observations from a re-analysis of the deposited data

How the results depend on the processing

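In the reported limma fit 0 of 7 members passed, beside 2628 of 7867 transcripts. With no minimum 0 of 9 passed (2562 of 28047 transcripts). There were 0 with 0.1 RPKM added (2593 of 7867), with 1 RPKM added (2645 of 7867) and at an adjusted p under 0.01 (1191 of 7867). Without the trend 1 passed (2554 of 7867), with all rows as deposited 1 (3393 of 9697) and with quantile normalization 2 (3730 of 7867). There were 3 each with median centring (3765 of 7867), a library total without the 10 highest rows (3621 of 7867) and at least 1 RPKM in every library (2733 of 6909). By voom on rebuilt reads 3 of 9 passed. Leaving out 1 library gave 0 to 4. With the replicate block 3 of 7 passed (*Pyy*, *Rbp4* and *Ttr*), and with voom and the replicate block 5 of 9. The numbers share only a label, and with 2 pairs the correlation of their deviations, 0.31, does not establish a pairing. Over all transcripts the block raised the calls from 2628 to 4067 of 7867, and voom gave 6082 of 14472, or 8219 with the block.

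Of 118 values of single members under an alternative, 82 kept their direction and side of the threshold, 29 passed it and 7 changed sign, none of these 7 past the threshold. The log2 difference of *Gcg* became 0.09 without replicate 1 at low glucose and 0.15 without replicate 2 at high glucose, within a range of -0.36 to 0.15 when 1 library was left out. That of *Ppy* became -0.018 without replicate 1 at high glucose, within -0.018 to 0.44. That of *Hhex* became -0.0016 with 1 RPKM added, -0.020 with voom and the replicate block, -0.23 without replicate 2 at low glucose and -0.11 without replicate 1 at high glucose, within -0.23 to 0.23. The cause was not tested.

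The pathway count of 8 stayed between 6 and 9 in every alternative. Of the 26 cell type markers tested, the alpha and beta lists among them, 8 passed, beside 2628 of 7867 transcripts. With quantile normalization 4 of 26 passed (3730 of 7867 transcripts) and with the replicate block 17 of 26 (4067 of 7867). With no minimum 2 of 43 passed (2562 of 28047), and with at least 1 RPKM in every library 19 of 24 (2733 of 6909). By voom 23 of 42 passed (6082 of 14472), and 25 of 42 with the block (8219 of 14472). At an adjusted p under 0.01 there were 5 of 26 (1191 of 7867). The number of libraries, 2 at each concentration, limits these calls, and at 54 to 298 reads per library *Ghrl* and *Ghsr* also carry counting error.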
